A study of Homo sapiens with 6 samples.

Results

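The peaks described here are regions of transcripts from DLD1, an established cell line of human colorectal cancer, that were recovered by an antibody against 7-methylguanosine (m7G) and that the deposited annotation places in a 5' UTR or on a start codon. They were taken as all rows of the deposited peak table whose class is 5' UTR (4680 peaks) or start codon (33 peaks), which gave 4713 of 9450 peaks, 49.9%. The other 4737 peaks are in the coding sequence (2784), in an exon with no further annotation (1758) or in the 3' UTR (195). Protein-coding genes hold 4704 of the members but 3824 of the other peaks, and only 855 of the exon peaks. The pooled other classes below thus also differ from the members in kind of gene. No measured value was used to choose the members. The table holds 1 peak for each gene, and the sources used here do not say how that peak was picked among a gene's peaks, so a gene outside the members may still carry m7G in its 5' UTR.

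The peaks come from 4 libraries: input RNA and m7G immunoprecipitate (IP) of DLD1 cells carrying the METTL1 knockdown construct sh2, and the same pair from control cells carrying sh-NT. A further RNA-seq pair, S-CAFs-w13 and DLD1-W13CM, was made from DLD1 cells labelled WT for genotype. By the treatment note they were grown beside cancer-associated fibroblasts (CAFs) in 1 case and S-CAFs in the other, and the meaning of the title DLD1-W13CM is not spelled out. Every group held 1 library, and the knockdown rests on a single construct, so no difference between the lines has a replicate check, and what sh2 does beyond lowering METTL1 cannot be told apart from it. In bulk RNA, fewer cells of a type and less RNA per cell cannot be told apart.

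m7G is best known as the cap that closes the 5' end of RNA polymerase II transcripts. There it is read by the nuclear cap-binding complex and, in the cytoplasm, by the initiation factor eIF4E. The same base also occurs inside tRNA, rRNA and some mRNAs, and METTL1 with its partner WDR4 is the enzyme known for internal m7G in tRNA. The 5' UTR lies between the cap and the start codon and is the stretch that the small ribosomal subunit scans. An antibody to m7G can bind both the cap and an internal m7G. The sources used here do not say whether caps were removed before the pull-down, and the part of the cap in the values below was not tested.

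The 5' end is where the cap and the listed peaks meet. For members whose peak covers them, the 30 bases from the annotated start onward are therefore shown. They were read from RefSeq windows on GRCh38.p14, on the transcript strand, starting at the RefSeq start nearest to the peak. Such a start is an annotated one and was not measured in DLD1. The bases are contiguous genomic sequence with introns left in, so they can differ from the spliced transcript. The first set is taken from the members with the highest fold enrichment, the deposited ratio by which a peak is enriched in the IP. MAPKAPK5, MTMR3 and POLR2M also cover these bases and rank above GOLGA5, but are not printed. Each of them has an ATG in these 30 bases, and none of the printed sequences of this set does. All letters are lower case because no motif was marked.
ATP5C1 (chr10:7788177-7788206, plus strand): ctgaccgaccttcagcagggctgtggctac
SNRPB2 (chr20:16730026-16730055, plus strand): cctgcttttggttcttacagtagtcggcgt
SEC11C (chr18:59139884-59139913, plus strand): aggtgctccgcagccgtctgtgccacccag
FBXO34 (chr14:55271421-55271450, plus strand): gctcggtccgactcagcggtggggagtgag
GOLGA5 (chr14:92794305-92794334, plus strand): gcttcccttccacgtctcccggaagcggta

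The second set holds members with a called change of m7G between the lines, the first 3 with a higher and the last 3 with a lower value in the reading used below.
PRPF18 (chr10:13586965-13586994, plus strand): agttgttctcaggtgtttgggcttgttgtt
KIF1C (chr17:4997950-4997979, plus strand): agctcgcgctgcccgggcgggcgccggccg
NDUFB6 (chr9:32573130-32573159, minus strand): gttcccgcaaggtcgctttgcagagcggga
SLC25A10 (chr17:81712284-81712313, plus strand): gcattggctgtgcggggtgcgggcgcgcgg
MDH1 (chr2:63588963-63588992, plus strand): gagtcagttccgcggtagaggtgacctgac
TIMMDC1 (chr3:119498547-119498576, plus strand): gtcgtatttccaaggactccaaagcgaggc

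The third set is taken from the 9 start codon members with an ATG inside these 30 bases, given in capitals. EDEM2, PAK1IP1 and TYRO3 also have one and are not printed. Whether the marked triplet is the annotated start codon was not checked.
PRMT5 (chr14:22929347-22929376, minus strand): agcgcgaggagaaagATGgcggcgatggcg
PRKAA1 (chr5:40798148-40798177, minus strand): agttcctggagaaagATGgcgacagccgag
RNF121 (chr11:71929046-71929075, plus strand): ggggcgagccgtgaagATGgcggcagtggt
VBP1 (chrX:155216460-155216489, plus strand): agtcgcgcgctcgcatccccaagATGgcgg
TIMM29 (chr19:10928811-10928840, plus strand): agacggaagaggATGgccgcggcggctctg
SIRT6 (chr19:4182534-4182563, minus strand): attgttcccgtggggcagtcgaggATGtcg

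The fourth set holds members whose RefSeq start opens with a C followed by at least 4 pyrimidines, the terminal oligopyrimidine (TOP) start known from mRNAs of the translation machinery. The capitals mark the whole opening run of C and T. The printed genes were picked mainly for a role in translation, out of 158 members with a TOP start that the peak covers. The 158 also hold genes of other kinds, among them JAGN1, the most enriched at 110, DDX50 and U2SURP.
EEF1B2 (chr2:206159895-206159924, plus strand): CCTTTTTCCTCTCTTCagcgtggggcgccc
RPL35A (chr3:197950190-197950219, plus strand): CTTCTCTTaccgccatcttggctcctgtgg
EIF3K (chr19:38619188-38619217, plus strand): CTCTTCCTgttcccgtccttgaggacgccg
RPL10 (chrX:154398377-154398406, plus strand): CTCTTTCCCTTCggtgtggtgagtaagcgc
RPS10 (chr6:34426040-34426069, minus strand): CCTTTCCagccccggtaccggaccctgcag
MRPL45 (chr17:38297168-38297197, plus strand): CCTTTgcgggaacaagatggcagcccccat
TOMM7 (chr7:22822820-22822849, minus strand): CCTTTCCCTTTCggattcccgacgctgtgg

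The targeted gene was measured in both inputs. METTL1 stood at 5.80 FPKM (fragment counts corrected for gene length and sequencing depth) in the control input, against 3.28 FPKM in the knockdown input, 1.77-fold lower, and its own listed peak is a member, with a fold enrichment of 31.3. That peak shares bases with the peak listed for EEF1AKMT3 on the opposite strand. Absolute read depth was not rebuilt here. The commonest ratio of control to knockdown input FPKM was 1.11, found in 101 of 9348 genes above 0 in both. That is the value for equal read numbers if it stands for genes with as many reads in both inputs, and it puts the knockdown input at 1.11 times the control input in effective size. Of 16 colon epithelial markers 12 were in the table, with summed levels of 3035 FPKM (control) and 3604 FPKM (knockdown). The keratins KRT8, KRT18 and KRT19 made up most of these sums. CDH1, CEACAM6, CDX2 and CLDN7 read lower in the knockdown and the other listed epithelial markers higher. Of the 15 fibroblast markers S100A4 alone was listed, at 5.79 and 11.2 FPKM, and 0 leukocyte and 0 endothelial markers were listed. Only genes with a listed m7G peak could appear here, so an absent marker may still be expressed.

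The 5' UTR and start codon peaks were the most strongly enriched classes of the table. Their median fold enrichment was 14.9 (quartiles 9.43 and 24.4), against 9.43 (3.97 and 16.9) for the other classes. A fold enrichment of at least 5 was reached by 4404 of 4713 members, 93.4%, and by 3317 of 4737 other peaks, 70.0%. At least 20 was reached by 1632 members, 34.6%, and by 923 other peaks, 19.5%. Fold enrichment is the authors' value, over libraries that are not stated, and is used here only to describe and rank peaks within their list. With 1 library in each group, these medians and counts have no test.

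Within the members, the start codon peaks had a median of 16.4 and ranged from 3.03 (CCAR2) to 51.6 (REXO2). The 5' UTR peaks had a median of 14.9 and ranged from 1.56 to 281. The start codon range lay wholly inside the 5' UTR range. Coding sequence and exon peaks had medians of 9.93 and 9.43, and 3' UTR peaks a median of 3.1 with an upper quartile of 6.95, below the lower quartile of the members.

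**Figure D1:**
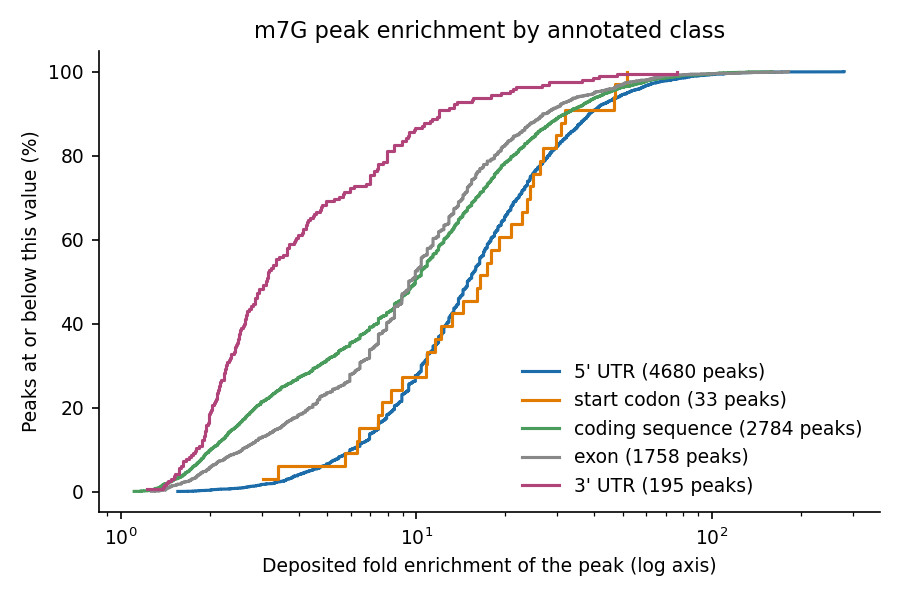
Cumulative share of peaks (%, vertical axis) at or below a given deposited fold enrichment (log axis), 1 line for each annotated class. The 5' UTR and start codon lines lie close together, with medians of 14.9 and 16.4, to the right of coding sequence (9.93), exon (9.43) and 3' UTR (3.1).

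The highest value belonged to ATP5C1, the gamma subunit of mitochondrial ATP synthase, at 281. Its 2-block peak (chromosome 10, 7788129 to 7796254) summed to 269 nt, and its gene's control and knockdown inputs read 18.7 and 24.1 FPKM. SNRPB2, a protein of the U2 snRNP, followed at 192, with input levels of 10.5 and 9.73 FPKM. MAPKAPK5, a protein kinase of the MAP kinase pathways, and SEC11C, a catalytic subunit of the signal peptidase, both stood at 173. The remaining peaks of the 10 highest were those of the F-box protein FBXO34 (164), GCOM1 (149), the lipid phosphatase MTMR3 (147), POLR2M (147), the golgin GOLGA5 (134) and the zinc finger gene ZNF254 (134).

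These 10 peaks do not stand for 10 separate regions, since GCOM1 and POLR2M are listed with overlapping peaks on chromosome 15 (57706669 to 57708726 and 57706659 to 57706958). GCOM1 itself stood at only 0.208 and 0.162 FPKM, against 1.6 and 2.46 FPKM for POLR2M. The peak of MAPKAPK5 shares bases with that of MAPKAPK5-AS1, and the peak of ZNF254 with that of AC092279.1. Among members named below, the peaks of AC099795.1, PIGBOS1, GNB1L and SNPH also share bases with other listed peaks. In all, 340 of 4713 members, 7.21%, shared at least 1 base with another listed peak, 74 of them with a peak on the same strand and 277 with a peak on the opposite strand. Whether the counting used strand is not stated, so for these peaks the reads of both genes cannot be told apart.

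Members were also somewhat wider. Summed over its blocks, that is, without the introns it spans, a member had a median width of 300 nt (quartiles 211 and 390), against 267 nt (181 and 359) in the other classes. From the first to the last genomic base the medians were 899 and 514 nt. More than 1 block was present in 2981 members, 63.2%, and in 54.3% of the others. Coding sequence peaks were close to the members in both, with a median span of 893 nt and more than 1 block in 65.4%. Exon peaks were lower in both, at 330 nt and 40.6%, and so were 3' UTR peaks, with a span of 237 nt. Summed widths came in steps: within 1 nt they were a multiple of 30 nt in 87.9% of members and 80.5% of the other peaks. The summed medians of 300 and 267 nt thus differ by about 1 step. Within 250 nt of a RefSeq start, the median summed width was 300 nt in members, 298 nt in the other classes and 300 nt in coding sequence peaks. The widest members were FKBP2 (1340 nt), an endoplasmic reticulum prolyl isomerase, NAA38 (1226 nt), a subunit of an N-terminal acetyltransferase, and NDUFAF3 (1188 nt), an assembly factor of respiratory complex I. The narrowest were UFSP1 (118 nt), AC099795.1 (119 nt) and CLP1 (119 nt).

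Across members, fold enrichment went with width (Spearman's rho 0.428 over 4713 peaks) and hardly with the gene's mean input level (rho 0.128). In the other classes the corresponding values were 0.484 and -0.15 over 4737 peaks. These are correlations across peaks that share the same libraries, and peaks are not independent replicates. By input level, the members' median fold enrichment was 11.3 below 1 FPKM, 13.4 from 1 to 3, 15.3 from 3 to 10, 16.4 from 10 to 30 and 17.0 at 30 FPKM or more. The other classes went the opposite way over the same ranges, from 10.4 through 9.93, 9.68 and 8.44 to 7.38. The classes were thus closest in genes with little RNA and farthest apart in abundant ones.

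A RefSeq start on GRCh38.p14 could be matched for 3882 of 4713 members, 82.4%, and for 3546 of 4737 other peaks, 74.9%. The submitters' processing notes name GRCh38 and hg38, and also the mouse build GRCm38. The class was checked by the genomic distance, introns included, of the single deposited point from such a start. Of 3882 points, 3272, 84.3%, were within 250 nt of the nearest start of the same gene. The median point was 77 nt downstream of it (quartiles 27 and 138 nt). A block of the peak covered the start itself in 2763 members, 71.2%. In the other classes 1596 of 3546 points, 45.0%, were within 250 nt, and the share that covered a start was 41.8%. The start codon points lay at a median of 57 nt, with 22 of 26 within 250 nt.

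**Figure D2:**
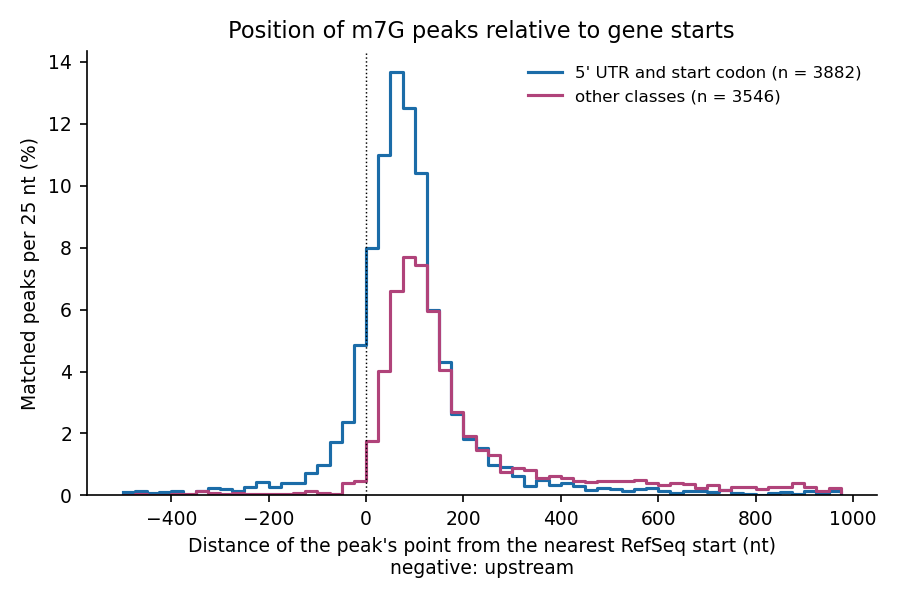
Share of matched peaks (%, in bins of 25 nt) against the signed distance in nt of the deposited point from the nearest RefSeq start, for 3882 members and 3546 peaks of other classes. Both lines peak just downstream of 0, and the members' line is higher there; peaks beyond the plotted range are left out, among them the 6.70% of members and 41.4% of the others that lie over 1000 nt away.

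The classes lay closer together near a start than far from it. Among peaks within 250 nt of a start, the median fold enrichment was 15.9 for 3272 members (quartiles 10.4 and 25.8) and 14.3 for 1596 others (9.23 and 23.3), and coding sequence peaks there reached 15.1. Between 250 and 1000 nt the medians were 10.4 and 9.51. Beyond 1000 nt they parted: 260 members had a median of 10.3 (5.28 and 16.4) and 1468 others a median of 3.43 (2.13 and 8.94). The starts in the RefSeq windows are not a full list of promoters, so a far member may lie beside a start that is not in them. Since these distances include introns, a far point may also lie nearer to the start along the transcript. The point of FAM83B was 23480 nt away although a block of its peak covered the start. These groups by distance were formed after the data were seen.

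**Figure D3:**
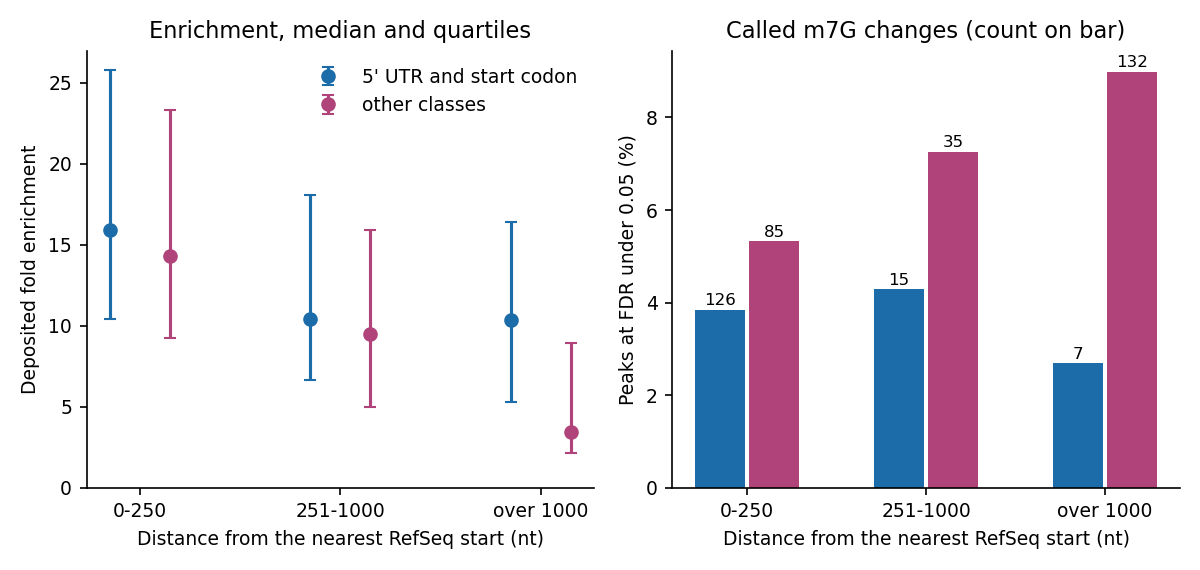
Left, median deposited fold enrichment with quartiles by distance (nt) from the nearest RefSeq start; right, share of peaks (%) with an m7G change at an FDR under 0.05, with their number on each bar. Members and other classes lie at 15.9 and 14.3 near a start and at 10.3 and 3.43 beyond 1000 nt, where 7 members and 132 other peaks were called.

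The first 50 genomic bases from the matched start, introns left in, had a median GC content of 68% in members. That was equal to the other classes and above the 60% of all 35116 RefSeq starts. G alone made up a median of 36% in members and in the other classes, against 30% of all starts. The opening base was A in 45.5%, G in 42.3%, C in 11.8% and T in 0.335% of members, where all starts had 44.4%, 33.6%, 14.7% and 7.24%. The other classes lay near the members, at 44.8%, 40.9%, 12.7% and 1.52%. An ATG within these 50 bases was present in 24.9% of members, 43.3% of the other classes and 40.2% of all starts. A 5' UTR ends at the start codon, so the class of a peak near a start is partly tied to an early ATG. The motif GGAGGA was searched on both strands of the 300-base windows, of which 250 bases lie upstream of the start. It was found there for 43.1% of members, 39.2% of the other classes and 36.6% of all starts. Within the first 50 bases after the start the shares were 7.73%, 7.5% and 7.14%. GAAGAA was found in the windows for 14.5%, 14.9% and 19.8%, and in the first 50 bases for 2.16%, 2.54% and 3.79%. A match is a description of letters and no binding site.

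Of the 26 start codon members with a matched window, 9 had an ATG in the first 30 bases, 34.6%, against 623 of 3856 5' UTR members, 16.2%, and 26.4% of all starts. Coding sequence peaks had 29.2%, and over the first 50 bases 46.1%, beside 46.2% of the start codon members. As above, these shares are partly tied to how the classes are defined. The sequences with ATG in capitals above belong to the start codon members. PRMT5, an arginine methyltransferase, had a fold enrichment of 30.8 and input levels of 29.8 and 29.4 FPKM. PRKAA1, a catalytic subunit of AMP-activated kinase, had 24.2, with 13.6 and 12.2 FPKM. SIRT6, a chromatin deacetylase, had 47.2, with 8.96 and 8.61 FPKM, and VBP1, a prefoldin subunit, had 17.4, with 21.6 and 19.9 FPKM. TMSB10, an actin-binding thymosin, was the most abundant member gene, at 1591 and 1844 FPKM, with a fold enrichment of 5.75.

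TOP starts were present at 214 of 3882 members, 5.51%, beside 5.75% in the other classes and 4.07% of all starts. Their median fold enrichment was 15.7, beside 14.9 for the 3668 matched members without a TOP start. Where the peak covers the first 30 bases, the medians were 18.2 for 158 members with a TOP start and 17.3 for 2581 without. EEF1B2, an exchange factor of translation elongation, reached 90.4 with input levels of 154 and 153 FPKM. RPL35A, a protein of the large ribosomal subunit, reached 59.6 with 40.7 and 43.9 FPKM, and EIF3K, a subunit of initiation factor eIF3, reached 58.6 with 38.5 and 36.5 FPKM. The longest run of these 3 was that of EEF1B2, at 16 pyrimidines. RPL35A and EIF3K had 8 each.

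The m7G comparison between the lines asks which peaks lose or gain m7G with less METTL1. The deposited log2 change does not name its numerator, and it is read here as knockdown over control; read the other way, every higher value becomes a lower one. Members were centred near 0: 2391 were above 0, 2261 below and 61 at 0, with a median log2 change of 0.017 (quartiles -0.49 and 0.53). The median over all peaks was 0.004.

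A change was called where the FDR in the authors' deposited table was under 0.05, which 180 members met, 101 higher and 79 lower, 3.82% of 4713. Over all 9450 peaks 5.25% were called, 3.07% higher and 2.18% lower, beside 2.14% and 1.68% of the members. The other classes had 316 calls among 4737 peaks, 6.67%. By class, 8.30% of coding sequence, 7.69% of 3' UTR and 3.98% of exon peaks were called, so exon peaks lay near the members. At an unadjusted p-value under 0.05, 339 members were higher and 271 lower, 7.19% and 5.75%, where all peaks had 8.6% and 7.5%. Over the whole table the members' share was thus smaller in both directions than that of the pooled other classes. Losses in exon peaks alone, at 1.37%, were below the members' 1.68%. For losses the order against the pooled classes also turned among the more enriched peaks. At a fold enrichment of at least 5, losses were called in 1.63% of 4404 members and 1.39% of 3317 other peaks, and gains in 2.09% and 3.2%. The authors' p-values rest on 1 IP and 1 input library of each line and cannot cover variation between cultures.

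The deposited change was of much the same size in members and the other classes. Its SD over peaks was 0.866 and 0.842, and its median size regardless of sign 0.515 and 0.521 on the log2 scale. A change of at least 2-fold in either direction was listed for 1076 members, 22.8%, of which 986 were not called, and for 1049 other peaks, 22.1%. From 1 FPKM upward, calls rose with the input level: 0.898% of members were called below 1 FPKM, 0.371% from 1 to 3, 1.95% from 3 to 10, 6.02% from 10 to 30 and 12.1% at 30 FPKM or more. The other classes had 1.68%, 0.978%, 2.90%, 8.58% and 22.7% in the same ranges. Members thus had the smaller share in each of these 5 ranges, which were chosen after the data were seen. Near a start, within 250 nt, 126 of 3272 members were called, 3.85%, and 85 of 1596 others, 5.33%. Among those others, 6.38% of coding sequence peaks and 3.33% of exon peaks were called. There too the directions parted: gains were called in 2.11% of members and 3.88% of the others, and losses in 1.74% and 1.44%.

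All 180 calls were 5' UTR peaks, and the start codon genes named here were picked after their values were seen. Of the 33 start codon peaks, 0 were called in the authors' deposited table, and at an unadjusted p-value under 0.05 it had 2 higher (VBP1 and CCAR2) and 1 lower (TMSB10). Their deposited log2 changes were 1.02, 0.68 and -0.05. With 33 peaks, a share of 5.25% would be fewer than 2 calls.

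Among the called gains, the deposited table listed WRNIP1, an ATPase that binds the Werner helicase, first, with a log2 change of 2.44 and an FDR of 0.000282. It had a fold enrichment of only 1.83 and its control and knockdown inputs read 10.9 and 7.26 FPKM. PRPF18, a splicing factor of the second step, had 2.16 in the deposited table (FDR 0.0214), with a fold enrichment of 84.9 and input levels of 7.28 and 4.1 FPKM. KIF1C, a kinesin motor, had 1.91 (FDR 7.08e-05 in the deposited table), at 46.1 and 50.4 FPKM. NDUFB6, an accessory subunit of respiratory complex I, had 1.69 (FDR 9.12e-05 in the deposited table), at 15.4 and 9.30 FPKM.

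The other gains of the 10 largest in the deposited table were ASB6, a SOCS-box protein (1.76), the actin-associated SWAP70 (1.66), the helicase DHX40 (1.64), TMEM248 (1.62), the AP-1 transcription factor JUNB (1.57) and the chromatin remodelling subunit BAZ1A (1.56). Of these 6, ASB6 had an input 1.34-fold lower and TMEM248 an input 1.38-fold lower in the knockdown. JUNB, at 54.4 and 56.4 FPKM, and BAZ1A, whose peak shares bases with that of AL121603.2, had the lowest fold enrichments, 2.87 and 4.33.

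Among the called losses, the largest in the deposited table was that of RNF14, a ubiquitin ligase, with a log2 change of -2.77 (FDR 0.0105). Its point lay 1689 nt from the nearest RefSeq start, and its fold enrichment was 3.4. ATP5C1, the most enriched member, had -1.95 with an FDR of 6.17e-07 in the deposited table. SLC25A10, the mitochondrial dicarboxylate carrier, had -1.90 (FDR 0.000646 in the deposited table), at 5.47 and 7.48 FPKM. MDH1, the cytosolic malate dehydrogenase, had -1.87 (FDR 0.00162 in the deposited table), at 29.3 and 32.6 FPKM, and TIMMDC1, a complex I assembly factor, had -1.71 (FDR 0.00398 in the deposited table), at 18.6 and 19.1 FPKM.

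Other losses among the 10 largest in the deposited table were NIPSNAP3A (-1.96), the Ral GTPase-activating subunit RALGAPB (-1.77), AL031587.6 (-1.69) and the dynein light chain DYNLT1 (-1.59). AL031587.6 was called although its gene stood at 0.144 and 0.103 FPKM. The METTL1 peak itself had a deposited log2 change of -2.20 and was not called, with an FDR of 0.635.

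Called members moved against their input more often than members in general. Of 99 called gains with a mean input of at least 1 FPKM, 72 had a lower input in the knockdown, 72.7%, beside 49.0% of all 4379 members at that level. Of 78 called losses, 57 had a higher input, 73.1%, beside 51.0%. The median input log2((FPKM + 1)/(FPKM + 1)) ratio of knockdown to control was -0.12 for the gains and 0.12 for the losses, and 0 of either passed 2-fold on this scale. In the other classes the corresponding shares were 58.5% and 62.8%. Over all members Spearman's rho between the m7G and the input change was -0.123 (4379 peaks), a description across peaks. The change of m7G is set against input, and both quantities use the same 2 input libraries. What part of the m7G change comes from the input was not tested.

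**Figure D4:**
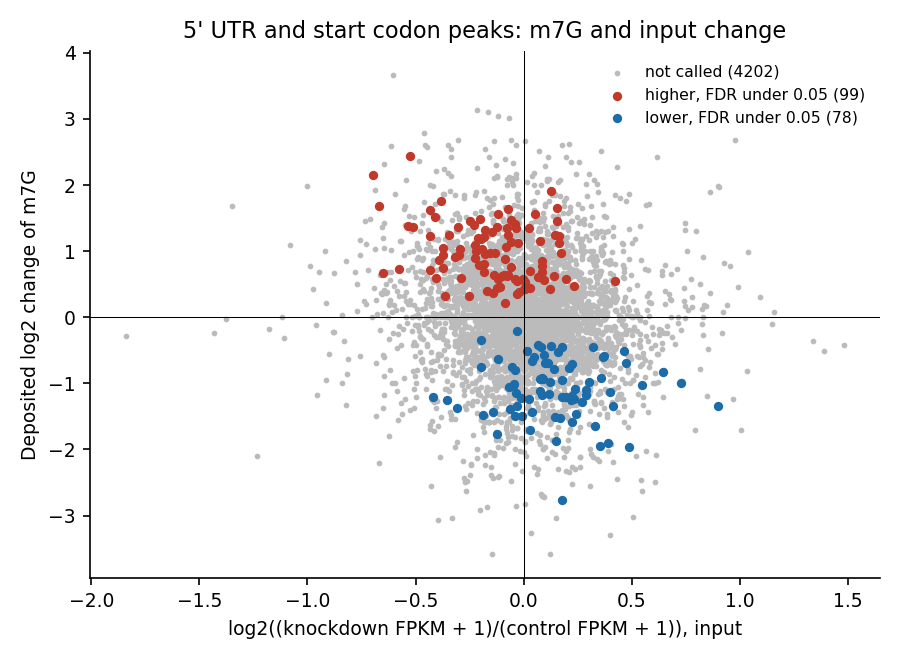
Deposited log2 change of m7G (vertical axis) against the log2 ratio of knockdown to control input FPKM, each with 1 FPKM added, for members with a mean input of at least 1 FPKM. Red points are the 99 called gains, of which 72 lie left of 0, and blue points the 78 called losses, of which 57 lie right of 0; grey points were not called.

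Input RNA of the member genes hardly differed between the lines. Of the 4379 members whose mean reached 1 FPKM, 9 stood 2-fold or more above control in the knockdown, 0.206%, and 10 stood 2-fold or more below it, 0.228%, on the log2(FPKM + 1) scale, which understates the change of low genes. Over all 8400 genes at that level the shares were 0.429% and 0.56%. By class they were 0.194% and 0.465% for coding sequence peaks and 1.73% and 1.96% for exon peaks, with 0 for 3' UTR peaks. The higher members were MSX1 (a homeobox factor, 2.98 and 10.1 FPKM in control and knockdown), CST7 (16.4 and 44.5), LGALS1 (galectin-1, 1.48 and 4.54), PIGBOS1, GNB1L, IL1RN, HOMER3, the EGFR ligand HBEGF (1.55 and 4.22) and FOS (3.13 and 7.31). The lower members included SAA1, an acute-phase protein (37.1 and 9.67 FPKM), the chemokine CXCL8 (6.18 and 1.66) and PDZK1IP1 (11.7 and 3.89). The others were SNPH, C6orf222, THAP10, ZNF619, RASL11A, GKAP1 and TMEM243. None of these 19 was called for m7G in the deposited table, and 3.82% of 19 would be fewer than 1. In that table the lowest FDR among them was that of TMEM243, at 0.0891 with a log2 change of 1.99.

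Gene groups differed in how often their listed peak was a 5' UTR peak. Of all peaks 49.9% are members. The lists hold protein-coding genes only, and of the 8528 peaks in such genes 4704 are members. Of 55 ribosomal protein genes 9 were, 16.4%, while 32 had an exon peak and 9 a coding sequence peak. Mitochondrial ribosomal proteins had 14 of 58, 24.1%, with 37 in the coding sequence. Genes known for upstream open reading frames, short reading frames in the 5' UTR that hold back translation of the main one, had 11 of 13, 84.6%, and cell cycle and replication genes 22 of 35, 62.9%. Translation factors with their modifying enzymes had 21 of 49, nuclear-encoded respiratory chain genes 34 of 80, the proteasome 13 of 33, tRNA synthetases 16 of 30, cholesterol synthesis 10 of 19, NF-kB subunits and targets 10 of 24, and m7G methyltransferases and cap genes 8 of 21. All list members were 5' UTR peaks and 0 were start codon peaks.

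The list medians of fold enrichment ran from 13.1 (tRNA synthetases) to 24.2 (NF-kB subunits and targets), beside 14.9 for all members, and were not tested. In the NF-kB list RELB, a subunit of the non-canonical pathway, stood at 125 and SAA1 at 60.1. The inputs of RELB read 24.4 FPKM in the control and 15.2 FPKM in the knockdown. In the upstream reading frame list ATF4, the transcription factor of the integrated stress response, reached 58.6, at 407 and 383 FPKM, and ODC1, the first enzyme of polyamine synthesis, reached 35.7. FDFT1, which makes squalene, reached 51.6 and RNGTT, the human capping enzyme, 53.6. The chaperone subunit PSMG3 reached 102, and TARS2, the mitochondrial threonyl-tRNA synthetase, 74.0. CDC6, a licensing factor of replication, reached 68.0 and RRM1, a subunit of ribonucleotide reductase, 53.1.

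**Figure D5:**
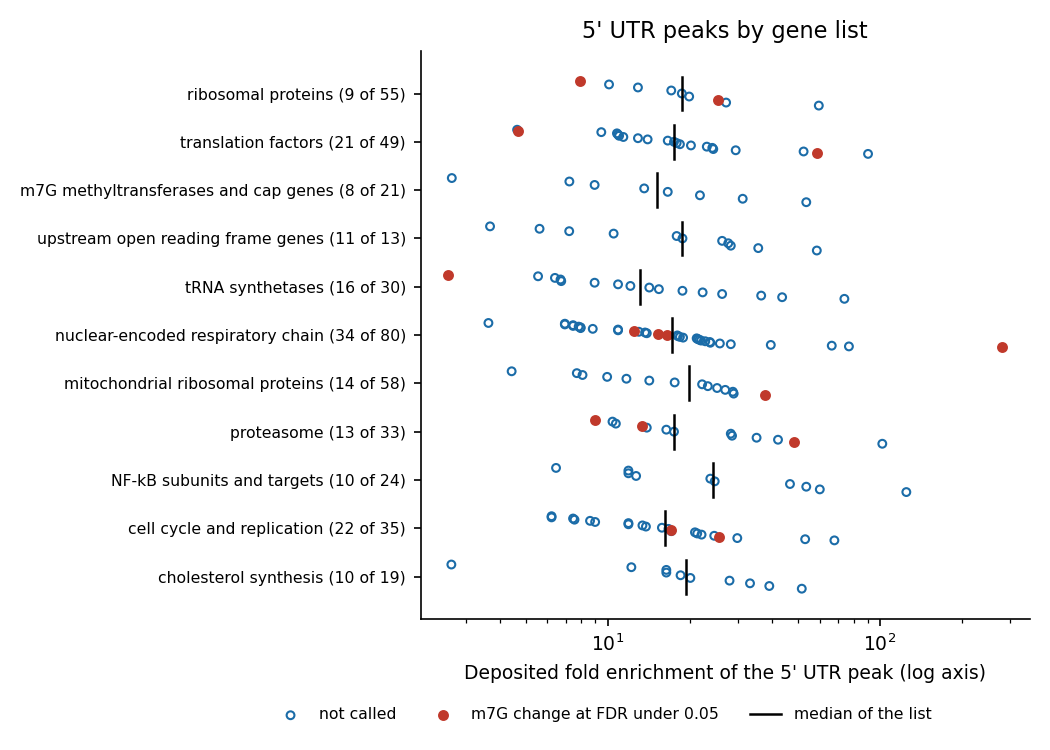
Deposited fold enrichment (log axis) of each 5' UTR peak in 11 gene lists, with the number of members and of genes in the table beside each name; bars are list medians and filled red points peaks with an m7G change at an FDR under 0.05. The medians lie between 13.1 and 24.2, and the outlying red point at 281 is ATP5C1.

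Of the 168 list members 15 were called, 8.93%, beside 3.82% of all members and 5.25% of all peaks. The list members' median input of 19.8 FPKM was above the 6.88 FPKM of all members, and calls rose with input as given above. The respiratory chain list had 1 gain, NDUFB6, and 3 losses in the deposited table: ATP5C1, ATP5J (log2 change -0.59, FDR 0.0151), a subunit of ATP synthase whose peak shares bases with that of GABPA, and COX16 (-0.99, FDR 0.0282), an assembly factor of cytochrome c oxidase whose input read 0.719 and 1.85 FPKM. The proteasome list had the gains of the activator PSME3 (0.44, FDR 0.000251 in the deposited table) and the lid subunit PSMD7 (0.61, FDR 0.00347), and the loss of the core subunit PSMA4 (-1.44, FDR 0.00447). Translation factors had a gain in EIF3K (0.64, FDR 0.00513 in the deposited table) and a loss in EEF1A1, the main elongation factor (-0.21, FDR 0.000159), at 612 and 599 FPKM. EEF1A1 has near-identical copies elsewhere in the genome among which reads can be split.

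Ribosomal proteins had a gain in RPL10 (0.33, FDR 0.0427 in the deposited table) and a loss in RPL22L1 (-0.64, FDR 0.0246). MRPL45 fell (-1.50, FDR 0.0288 in the deposited table), as did the spindle checkpoint kinase BUB1B (-0.98, FDR 0.0138), while cyclin A2, CCNA2, gained (0.96, FDR 0.0331). The histidyl-tRNA synthetase HARS gained (1.46, FDR 0.00123 in the deposited table) with a fold enrichment of only 2.59. The cap, upstream reading frame, NF-kB and cholesterol lists had 0 calls among 39 members, where 3.82% would be fewer than 2. Their lowest FDRs in the deposited table were 0.483 (QKI), 0.0776 (PPP1R15A), 0.118 (NFKB1) and 0.189 (SQLE), genes named after their values were seen. List medians of the deposited log2 change ran from -0.32 to 0.06, with 10 of 11 below 0, beside 0.017 for all members. No test was made of these medians.

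In the co-culture pair, the genes named above gave a single value for each library. ATP5C1 read 14.4 (DLD1-W13CM) and 19.5 FPKM (S-CAFs-w13), and METTL1 read 4.82 and 1.78 FPKM. Among the members named above for the largest gains and losses, BAZ1A and SLC25A10 lay farthest apart in that pair: BAZ1A was 3.16-fold lower in S-CAFs-w13 (13.4 and 4.24 FPKM) and SLC25A10 2.49-fold lower (3.67 and 1.47 FPKM). The closest were RALGAPB (10.5 and 10.8 FPKM), NDUFB6 (6.82 and 7.07 FPKM) and DYNLT1 (7.81 and 7.97 FPKM). m7G was not measured in that pair.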

How the data were processed

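Peaks, their annotated class and all m7G values were used as deposited by the authors. Per the submitters' processing notes the tools were cutadapt 2.5, HISAT2 2.1.0, featureCounts 1.6.3, DESeq2, SAMtools 1.10 and HOMER 4.10.4, with no role given, and the sources used here name no peak caller. Per the file headers the authors deposited a fold enrichment (a ratio) for each peak, p-values for input and enrichment, a log2 change of m7G, and that change's p-value and FDR on a log10 scale. The header does not give the unit of the deposited input values, which were taken as FPKM because they behave like the co-culture table's FPKM. From these, Python 3.11.15 with pandas 2.3.3 and SciPy 1.17.1 gave medians, quartiles, shares, Spearman correlations and distances to RefSeq starts, the gene being matched by symbol, current symbol or synonym on the same chromosome and strand. A call is an FDR under 0.05. Input ratios have 1 FPKM added and need a mean of at least 1 FPKM. The helper functions were tested on simulated peaks. Named genes are the 10 highest by fold enrichment, the 10 largest called changes each way, any called start codon peak (there was none), the 3 widest and 3 narrowest, up to 10 past 2-fold in input each way, and for each list its called members and 2 most enriched, with exceptions named as such. Of these, 1 gene is not reported here. The members, lists and measures were chosen with earlier results of these data known.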

Additional observations from a re-analysis of the deposited data

How the results depend on the processing

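No paired analysis was possible because each group holds 1 library and no test was run. At a mean input of at least 5 FPKM the median fold enrichment was 16.4 in members and 8.52 in the other classes, and with a fold enrichment of at least 2 it was 10.4 in the other classes. Within 250 nt of a RefSeq start, which was chosen after seeing the data, the medians were 15.9 and 14.3, with 62 gains and 23 losses in the other classes. The genomic span of 899 nt in members and 514 nt in the others became 300 and 267 nt as summed blocks and 240 and 229 nt without peaks of more than 1 block. At a mean input of at least 5 FPKM it was 1074 and 662 nt, and in the other classes 572 nt at a mean of at least 1 FPKM and 600 nt at a fold enrichment of at least 5. At a p-value under 0.05 there were 339 gains and 271 losses in members and 474 and 438 in the others, and at an FDR under 0.01 50 and 33, and 100 and 60. At a fold enrichment of at least 5 the other classes kept 106 gains and 46 losses, where members had 92 and 72. Input counts past 2-fold rested on the scale: 39 higher and 35 lower with 0.1 FPKM added, and 3 and 4 at a mean of at least 5 FPKM. Within 100 nt of a start were 55.5% of members, and by the peak's edge 79.7% were within 250 nt. Read as control over knockdown, the members' counts swap to 79 gains and 101 losses. Base composition over the peak itself was not run, since it needs a genome. Of all values recomputed, 30 stayed within their interval or 1.5 times and 31 moved. Calls were few below 3 FPKM, and absolute depth was not rebuilt here.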

Other observations

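The printed start codon sequences share the letters AAGATGG around the marked ATG in several genes, a pattern that was noticed in the sequences and then counted. The printed set holds every start codon member found with these letters but not every one with an early ATG, so it overstates how common they are. AAGATGG is the core of the element known as TISU, a translation initiator of mRNAs with a very short 5' UTR. On the transcript strand it was found in the first 50 bases of 4 of 26 start codon members with a matched window, 15.4%: PRMT5, PRKAA1, RNF121 and VBP1. The share was 2.7% of 3856 5' UTR members, 7.14% of 2296 coding sequence peaks and 1.66% of all 35116 RefSeq starts. The 108 members with these letters had a median fold enrichment of 16.9, beside 14.9 for all members, and 82 of their peaks covered the start. By the deposited FDR, 2 of them were called higher and 4 lower, 5.56% in all beside 5.25% of all peaks and 3.82% of members, with a median log2 change of -0.06. These shares have no test, and those by class are partly tied to how the classes are defined.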
